A study of Homo sapiens with 6 samples.

Results

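PARP1, PARP3, PARP4, PARP9, PARP10, PARP11, PARP12, PARP14, DTX3L and ZC3HAV1 are described here in SKOV3 cells stimulated with cGAMP. They were picked by gene symbol, with earlier results of these data known, and they are 10 of the 60498 genes in the count table. Their counts beside the shares of all genes are thus a description and not a test. All 10 passed the filter on low counts, as did 15126 genes in all. PARP9, PARP10, PARP11, PARP12, PARP14, ZC3HAV1 and DTX3L are the 7 genes linked to interferon, and PARP1, PARP3 and PARP4 are the 3 constitutive PARPs set against them.

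SKOV3 (SK-OV-3) is an established ovarian cancer cell line whose parent cells carry 1 WT and 1 HAQ copy of STING1, the receptor for cGAMP (line WT/HAQ). HAQ is a common STING1 haplotype with several linked amino acid changes. CRISPR editing removed 1 of the copies, which gave a clone with the WT copy alone (WT/-) and a clone with the HAQ copy alone (HAQ/-). Each edited line is a single clone, picked by limiting dilution after lentiviral delivery of 2 guides and puromycin selection, so the effect of a genotype and of a clone cannot be told apart. Cells of each line were exposed to cGAMP (10 μg/mL, 30 min) in a digitonin buffer that lets it enter and were then kept in fresh medium for 4 h. The sample labels, in contrast to the published methods, place the harvest right after the treatment. The control cells are labelled only as control, and the sources used here do not say whether they received the buffer. Each line gave 1 control and 1 cGAMP library, 6 in all, so no condition has a replicate. Levels are given as counts (estimated counts as deposited) or as normalized counts, scaled for library size by edgeR's TMM method, and a fold is the normalized cGAMP level over the control level in the same cells, with a 95% interval for counting error alone.

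PARPs attach ADP-ribose, taken from NAD+, to proteins. PARP1 and PARP3 act at DNA breaks, while several of the mono-ADP-ribosyltransferases and their partners are products of interferon-stimulated genes with antiviral roles. In the usual order of events, cGAMP activates STING1, STING1 drives the transcription of type I interferon, and secreted interferon switches on these genes through a complex that includes STAT2 and IRF9. That complex is known to bind the interferon-stimulated response element (ISRE), and the gamma-activated site (GAS) is the element best known from interferon gamma responses.

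The following stretches surround the start sites of the raised genes whose windows were used, and of PARP1 for contrast. They are shown since the results turn on whether a gene of the set responded. They come from RefSeq promoter windows (GRCh38.p14), are written 5′ to 3′ on the strand of the gene, and hold the last 60 bases before the start site and 20 after it, or 120 before it for ZC3HAV1. Capitals mark matches on either strand to an ISRE core, GAAANNGAAA, or to a GAS, TTCNNNGAA.
PARP9, minus strand, chr3:122564281-122564360: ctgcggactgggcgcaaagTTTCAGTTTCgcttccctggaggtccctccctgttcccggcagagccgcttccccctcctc
DTX3L, plus strand, chr3:122564278-122564357: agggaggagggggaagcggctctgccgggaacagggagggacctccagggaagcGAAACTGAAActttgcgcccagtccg
PARP14, plus strand, chr3:122680779-122680858: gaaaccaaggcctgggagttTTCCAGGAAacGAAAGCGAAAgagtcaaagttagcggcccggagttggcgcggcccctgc
PARP12, minus strand, chr7:140062932-140063011: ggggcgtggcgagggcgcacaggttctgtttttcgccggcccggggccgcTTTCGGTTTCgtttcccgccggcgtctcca
ZC3HAV1, minus strand, chr7:139109701-139109840: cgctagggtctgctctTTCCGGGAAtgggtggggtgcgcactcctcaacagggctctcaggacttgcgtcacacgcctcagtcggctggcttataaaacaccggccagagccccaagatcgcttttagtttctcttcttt
PARP1, minus strand, chr1:226408074-226408153: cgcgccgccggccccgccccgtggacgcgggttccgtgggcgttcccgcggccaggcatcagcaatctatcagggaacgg

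PARP9 and DTX3L are transcribed away from each other, from RefSeq start sites 38 bp apart, with PARP9 taken at the window shown. The capitals in their stretches are the same 10 bases of the genome, chr3:122564332-122564341, read from opposite strands. The full windows run from 250 bases before to 50 after the start. Within them the ISRE core was found for PARP9, DTX3L, PARP14 and PARP12, 4 of the 8 genes whose windows were used. The GAS was found for PARP14 and ZC3HAV1, and in PARP14 it lies just before the ISRE core. Neither motif was found in the windows of PARP1, PARP3 and PARP11. The same held for a second PARP9 window, chr3:122564735-122565034, which lies inside the DTX3L gene. Of all 35116 RefSeq windows, 1255 (3.57%) hold the ISRE core and 2689 (7.66%) hold the GAS, so that a match is a description of the letters and not of binding. The RefSeq start of ZC3HAV1 lies inside its GENCODE gene rather than at the outer end. No window was used for PARP4 and PARP10.

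cGAMP was followed by higher levels of 6 of the 10 genes in all 3 lines, ZC3HAV1, PARP14, PARP9, DTX3L, PARP10 and PARP12, while PARP1, PARP3, PARP4 and PARP11 stayed under 1.5-fold in every line. Among all genes, 12.9%, 11.9% and 6.77% were raised at least 1.5-fold in WT/HAQ, WT/- and HAQ/-. None of the 10 genes was lowered at least 1.5-fold, against 12.3%, 8.79% and 5.79% of all genes in these lines. With the lines as repeats, edgeR's quasi-likelihood test called the same 6 genes higher (2.27% of all genes) and 0 of the 10 lower (0.959% of all genes). At an unadjusted p under 0.05 the test had 7 of the 10 higher, PARP4 being the addition, against 11.6% of all genes, and 0 lower, against 13.6%, and DESeq2 called 6 higher (5.10% of all genes) and 0 lower (3.85%). Without the WT/- line edgeR called 0 genes in either direction (953 higher and 945 lower by an unadjusted p under 0.05, the 6 genes included), and the adjusted p of the 6 genes lay between 0.123 for PARP9 and 0.288 for PARP10, with all 6 higher in both remaining lines. A bulk library cannot tell more RNA per cell from more responding cells.

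**Figure D1:**
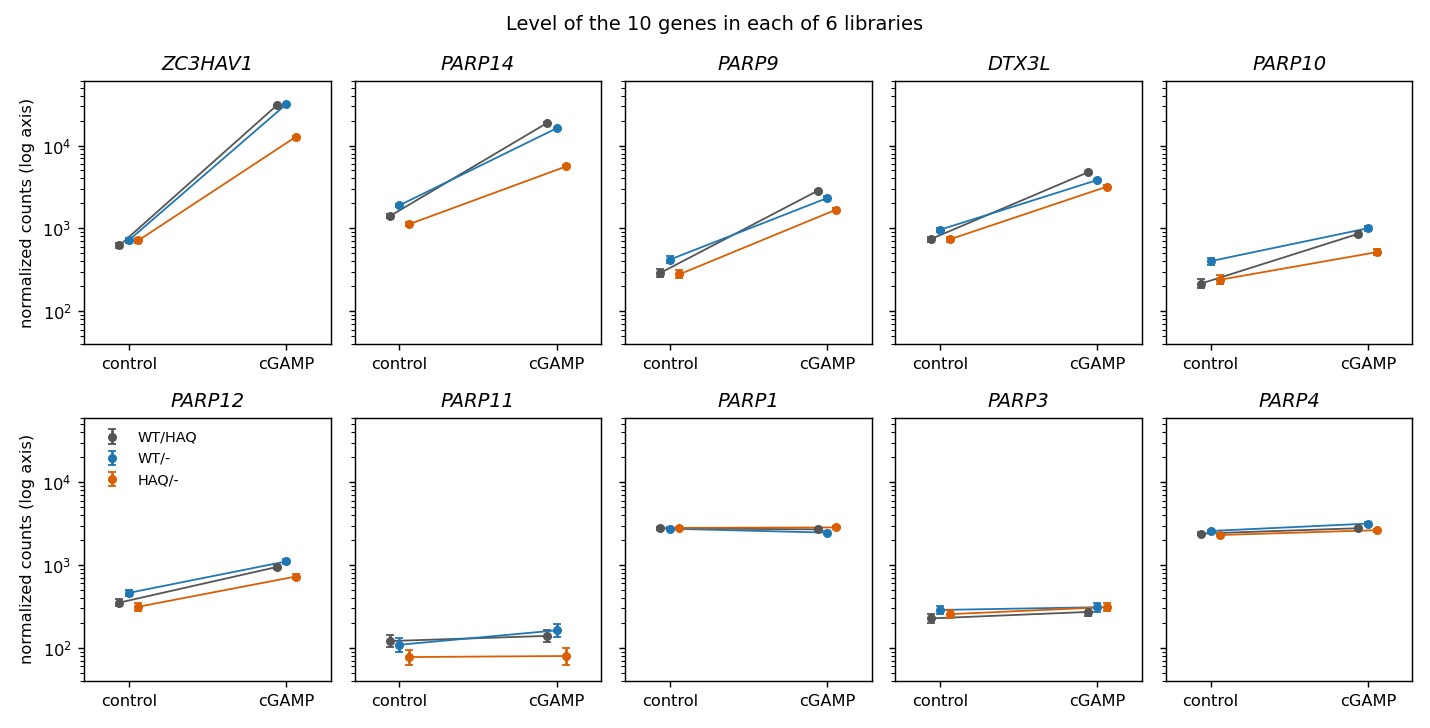
Level of each gene in the 6 libraries as TMM-normalized counts on a log axis, with control and cGAMP libraries joined within a line and bars for the 95% counting interval. The 5 genes of the upper row, PARP12 and PARP4 separate from their controls in all 3 lines, PARP4 by less than 1.5-fold. PARP11, PARP1 and PARP3 also stay under 1.5-fold, with PARP11 at 1.49-fold in WT/-.

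ZC3HAV1 (ENSG00000105939) encodes ZAP, also called PARP13, a zinc-finger protein with an inactive PARP domain that binds CpG-rich viral RNA and brings in RNA decay. It lies on the minus strand of chromosome 7, from 139043515 to 139132122 in GRCh38, with 13 exons in the canonical transcript. It had 703 counts in the WT/HAQ control and 32038 after cGAMP. In WT/- the counts were 771 and 23524, and in HAQ/- they were 819 and 11563. The 3 controls sat close together and the 3 cGAMP libraries lay far above them, with HAQ/- the lowest of these. In normalized counts WT/HAQ went from 621.4 to 30452, WT/- from 719.5 to 31419 and HAQ/- from 714.5 to 12657. These are folds of 49.0, 43.7 and 17.7, the largest of the 10 genes in each line, with ranks of 36, 31 and 20 by fold among all genes. The average log2 fold was 5.08 (SE 0.35, edgeR adjusted p = 0.00668).

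PARP14 (ENSG00000173193) encodes a large mono-ADP-ribosyltransferase with macrodomains, which bind ADP-ribose. It lies on the plus strand of chromosome 3, from 122680839 to 122730840, with 17 exons. Its counts were 1590 and 19696 in WT/HAQ, 2030 and 12083 in WT/-, and 1282 and 5101 in HAQ/-, control before cGAMP. Per kb of canonical transcript, PARP14 was the most abundant of the raised genes before treatment in all 3 lines (over all annotated exons DTX3L stood above it in HAQ/-), and its cGAMP libraries did not overlap the controls. Its folds in the same order of lines were 13.3, 8.52 and 4.99. The log2 folds, with 95% counting intervals, were 3.74 (3.66 to 3.81), 3.09 (3.02 to 3.16) and 2.32 (2.23 to 2.41), so that no pair of lines overlapped. The average was 3.05 (SE 0.28, edgeR adjusted p = 0.0127). PARP14 and PARP12 also belong to the ISG signature of the study.

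PARP9 (ENSG00000138496) encodes a macrodomain protein that works as a complex with DTX3L (ENSG00000163840), a ubiquitin ligase of the Deltex family. The genes are head to head on chromosome 3, PARP9 on the minus strand from 122527924 to 122564577 with 11 exons and DTX3L on the plus strand from 122564338 to 122575203 with 5. PARP9 had 328 and 2985 counts in WT/HAQ, 449 and 1736 in WT/-, and 319 and 1542 in HAQ/-. DTX3L had 838 and 5003 counts in WT/HAQ, 1032 and 2873 in WT/-, and 843 and 2909 in HAQ/-. Both genes of the pair started highest in WT/- and ended highest, as normalized levels, in WT/HAQ. The folds of WT/HAQ, WT/- and HAQ/- were 9.79, 5.53 and 6.07 for PARP9, and 6.42, 3.98 and 4.33 for DTX3L. The larger fold of PARP9 held in each line. Their averages on the log2 scale were 2.78 (SE 0.18, edgeR adjusted p = 0.00621) for PARP9 and 2.26 (SE 0.15, adjusted p = 0.00639) for DTX3L. The exons of the pair overlap by 139 bp on opposite strands, and whether the libraries keep strand is not given in the sources used here.

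PARP12 (ENSG00000059378) encodes a mono-ADP-ribosyltransferase with CCCH zinc fingers, related to ZAP. It lies on the minus strand of chromosome 7, from 140023749 to 140062951, with 12 exons. Its counts were 399 and 996 in WT/HAQ, 495 and 828 in WT/-, and 360 and 664 in HAQ/-. The folds were close to each other, 2.68, 2.39 and 2.31, and the average log2 fold was 1.30 (SE 0.079, edgeR adjusted p = 0.00545). PARP12 thus had the smallest average fold of the 6 raised genes and the smallest SE. When the line was left out of the fit its adjusted p was 0.0853, and those of PARP14 and PARP10 were 0.0670 and 0.171.

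PARP10 (ENSG00000178685) encodes a mono-ADP-ribosyltransferase first described as a partner of MYC. It lies on the minus strand of chromosome 8, from 143977153 to 144012772, with 11 exons. It had 244 and 905 counts in WT/HAQ, 431 and 751 in WT/-, and 275 and 473 in HAQ/-. The WT/- control stood well above the other two controls, and the WT/- cGAMP library was also the highest of the 3 in normalized counts, 1003 against 860.2 in WT/HAQ and 517.8 in HAQ/-. The 3 folds were 3.99, 2.49 and 2.16, with an average log2 fold of 1.47 (SE 0.18, edgeR adjusted p = 0.0257). PARP10 shares 324 bp of exon with GRINA on the opposite strand, and reads there could not be assigned if strand was not kept.

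PARP11 (ENSG00000111224), on the minus strand of chromosome 12 from 3791047 to 3873448, encodes a mono-ADP-ribosyltransferase linked to the nuclear envelope and to interferon receptor signalling. It was the scarcest of the 10 genes, with 137 and 147 counts in WT/HAQ, 117 and 122 in WT/-, and 89 and 73 in HAQ/-. Only the WT/- fold, 1.49, had a counting interval above 0 on the log2 scale (0.58, 0.21 to 0.94), just under the 1.5-fold line. In WT/HAQ the log2 fold was 0.21 (-0.13 to 0.54) and in HAQ/- it was 0.04 (-0.40 to 0.49). The test gave an average of 0.28 (SE 0.16, edgeR adjusted p = 0.345), and at these counts a change smaller than the intervals was not detectable.

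PARP1 (ENSG00000143799), on the minus strand of chromosome 1 from 226360210 to 226408154, encodes the main enzyme that senses DNA strand breaks and builds poly-ADP-ribose. Its counts were 3148 and 2837 in WT/HAQ, 2945 and 1845 in WT/-, and 3223 and 2601 in HAQ/-. Scaled for depth, the log2 folds were -0.05 (-0.12 to 0.03), -0.16 (-0.24 to -0.07) and 0.02 (-0.06 to 0.09), so the WT/- interval alone lay below 0. The average was -0.06 (SE 0.071, edgeR adjusted p = 0.648). PARP1 is the flattest of the set, with normalized counts between 2464 and 2847 in all 6 libraries.

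PARP4 (ENSG00000102699), the PARP of vault particles, lies on the minus strand of chromosome 13 from 24420931 to 24512778, and PARP3 (ENSG00000041880), which acts in the joining of DNA breaks, lies on the plus strand of chromosome 3 from 51942345 to 51948867. PARP4 had 2716 and 2930 counts in WT/HAQ, 2764 and 2370 in WT/-, and 2643 and 2410 in HAQ/-. Its log2 folds were small, 0.21 (0.14 to 0.29), 0.30 (0.22 to 0.37) and 0.19 (0.11 to 0.27), but each was above its counting error. The average of 0.23 (SE 0.066, edgeR adjusted p = 0.112) did not pass the test. PARP3 had 257 and 286 counts in WT/HAQ, 308 and 232 in WT/-, and 293 and 284 in HAQ/-, with log2 folds of 0.26, 0.11 and 0.28 and an average of 0.22 (SE 0.092, edgeR adjusted p = 0.221). PARP4 and the 6 raised genes, 7 of the 10, had all 3 cGAMP libraries above all 3 controls in normalized counts, which 7.99% of all genes had.

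**Figure D2:**
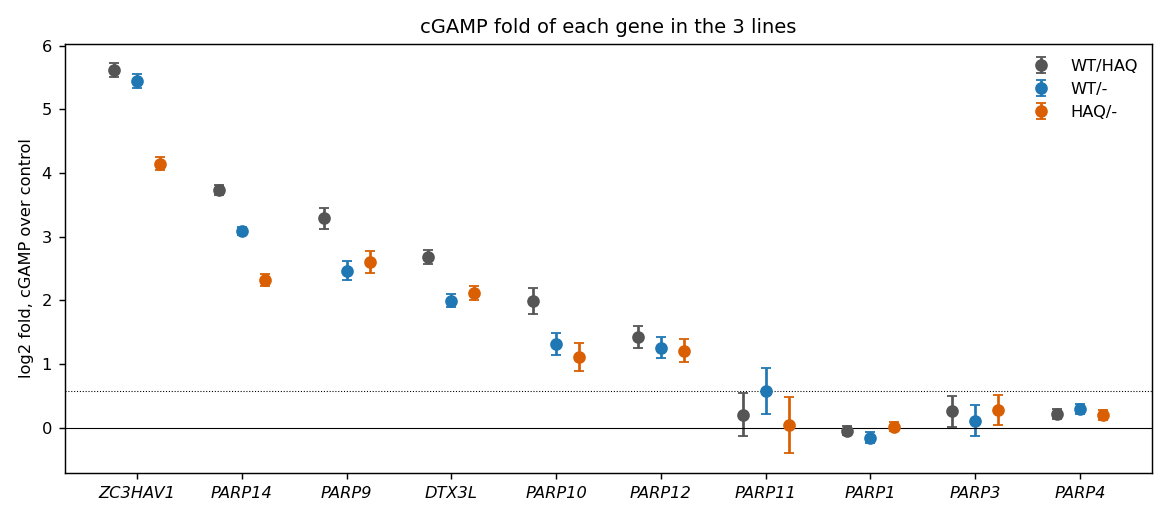
The log2 fold of cGAMP over control for each gene in each line, with 95% counting intervals; the solid line is at 0 and the dotted line at 1.5-fold. ZC3HAV1 lies between 4.15 and 5.61, the other raised genes lie between 1.11 and 3.74, and PARP11, PARP1, PARP3 and PARP4 lie between -0.16 and 0.58.

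The raised genes did not differ between the lines alike. ZC3HAV1 and PARP14 had a smaller fold in HAQ/- than in WT/-, while PARP9, DTX3L, PARP12 and PARP10 had folds in these edited lines whose difference was within counting error, apart from DTX3L with library totals as the only scaling (-0.17, -0.32 to -0.02). The log2 fold of WT/- minus that of HAQ/- was 1.30 (1.16 to 1.45) for ZC3HAV1 and 0.77 (0.66 to 0.88) for PARP14. It was 0.21 (-0.07 to 0.48) for PARP10, 0.05 (-0.20 to 0.29) for PARP12, -0.12 (-0.27 to 0.03) for DTX3L and -0.13 (-0.36 to 0.10) for PARP9. ZC3HAV1 and PARP14 were the 2 of the 10 genes with a fold at least 1.5 times larger in WT/- than in HAQ/-, a difference that 12.0% of all genes had. The intervals cover counting error only, since no line has a replicate, and no test of the difference between lines was possible.

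All 6 raised genes had their largest fold in the parent cells. The log2 fold of WT/HAQ minus that of WT/- was 0.82 (0.60 to 1.05) for PARP9, 0.69 (0.54 to 0.84) for DTX3L, 0.68 (0.41 to 0.94) for PARP10 and 0.64 (0.54 to 0.75) for PARP14. For ZC3HAV1 and PARP12 it was 0.17 (0.02 to 0.32) and 0.17 (-0.07 to 0.40). PARP9, DTX3L, PARP10 and PARP14 were the 4 genes past 1.5 times in this pair of lines, against 8.60% of all genes. Between WT/HAQ and HAQ/- the 4 genes past 1.5 times were ZC3HAV1 with a difference of 1.47, PARP14 with 1.42, PARP10 with 0.89 and PARP9 with 0.69, against 12.5% of all genes. DTX3L, with 0.57, fell just short, and PARP12 had 0.21 (-0.04 to 0.46). PARP14 was the only one of the 10 past 1.5 times in all 3 pairs of lines, and PARP12 was the only raised gene past it in none.

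**Figure D3:**
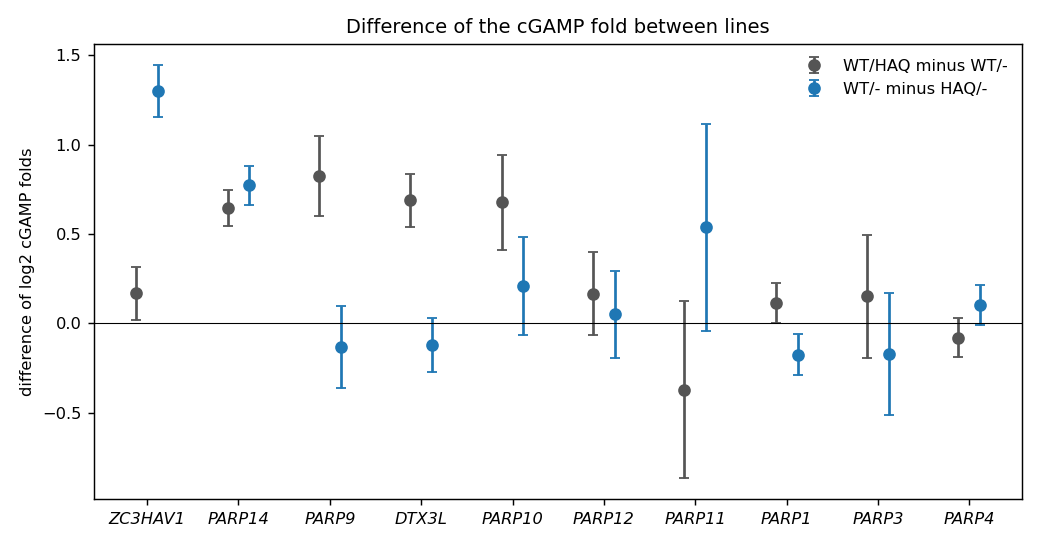
Difference between lines of the log2 cGAMP fold for each gene, as WT/HAQ minus WT/- and as WT/- minus HAQ/-, with 95% counting intervals. ZC3HAV1 has the largest WT/- minus HAQ/- difference (1.30). Of the pairs shown, PARP9, DTX3L and PARP10 differ mainly between WT/HAQ and WT/-. The pair WT/HAQ minus HAQ/- is not shown, with 0.69, 0.57 and 0.89 for these genes.

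WT/HAQ and WT/- already differed in the control libraries. After cGAMP the level in WT/HAQ was 1.24 times that in WT/- for DTX3L, 1.22 times for PARP9 and 1.16 times for PARP14. For PARP10, PARP12 and ZC3HAV1 it was 0.858, 0.856 and 0.969 times, so their larger folds in WT/HAQ came with lower end levels. The control level in WT/HAQ was 0.536 times that in WT/- for PARP10, 0.692 times for PARP9, 0.742 times for PARP14, 0.763 times for PARP12, 0.769 times for DTX3L and 0.864 times for ZC3HAV1. Of the constitutive genes, PARP3 had a ratio of 0.790, also beyond counting error and near those of DTX3L and PARP12, while PARP4 had 0.931 and PARP1 had 1.01. In all, 8 of the 10 genes, the 6 raised genes with PARP3 and PARP4, were higher in the untreated WT/- cells than in the untreated parent beyond counting error, as were 28.1% of all genes. PARP10 alone was past 1.5-fold, a share of the 10 no larger than the 13.0% of all genes that were higher, and 0 were lower, against 9.90%. The HAQ/- control was closer to the parent, with WT/HAQ over HAQ/- ratios of 1.04 for PARP9, 1.01 for DTX3L, 0.899 for PARP10, 1.12 for PARP12, 1.26 for PARP14 and 0.870 for ZC3HAV1. In that pair 0 of the 10 genes were higher in HAQ/- by 1.5-fold, against 7.40% of all genes, and PARP11 alone was lower, against 8.62%. With library totals as the only scaling the log2 ratio of PARP11 was -0.57, just short of 1.5-fold.

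Compared as levels after cGAMP, without the controls, WT/- stood above HAQ/- beyond counting error for 8 of the 10 genes, the 6 raised genes, PARP11 and PARP4, as it did for 31.1% of all genes. The ratio of normalized counts was 2.89 for PARP14, 2.48 for ZC3HAV1, 1.94 for PARP10, 1.52 for PARP12, 1.37 for PARP9 and 1.21 for DTX3L. PARP11, which was not raised, had a ratio of 2.04, with 122 and 73 counts, and PARP4 had a log2 ratio of 0.26 (0.18 to 0.34). For PARP14, PARP10, PARP9, PARP12 and DTX3L the higher end level of WT/- came with a higher control level, with WT/- over HAQ/- control ratios of 1.69, 1.68, 1.51, 1.47 and 1.31. For ZC3HAV1 the controls of these lines had a ratio of 1.01. The fold and the end level place WT/- and HAQ/- differently for PARP9 and DTX3L, whose folds were slightly smaller in WT/- and whose cGAMP levels were higher there.

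After cGAMP, ZC3HAV1 and PARP14 took larger shares of the summed level of the 10 genes in all 3 lines. Levels were compared between genes as CPM (counts scaled to a common library size) per kb of the canonical transcript. By this length PARP1 and PARP4 led the controls, with 36.1% and 22.8% of the summed level of the 10 genes in WT/HAQ, 31.0% and 21.3% in WT/-, and 37.3% and 22.4% in HAQ/-. ZC3HAV1 held 4.47%, 4.49% and 5.26% there and stood eighth, ninth and seventh of the 10. After cGAMP it stood first in every line, with 41.1%, 44.1% and 33.1%, and PARP14 was next with 23.6%, 21.1% and 13.6%. PARP1 then had shares of 6.56%, 6.24% and 13.4%. PARP10, PARP12 and PARP11 had smaller shares after cGAMP in all 3 lines, such as 6.03% and 3.03% for PARP12 in WT/HAQ, as did DTX3L in WT/-. Together the 6 raised genes made up 34.7% of the sum before and 87.0% after cGAMP for WT/HAQ, 41.2% and 86.2% for WT/-, and 33.6% and 74.7% for HAQ/-. For WT/HAQ the sum itself went from 124 to 662 CPM per kb, for WT/- from 143 to 636, and for HAQ/- from 121 to 342. The order depends on the length used. Over all annotated exons PARP4 led the controls of WT/HAQ, WT/- and HAQ/- with 35.8%, 32.4% and 35.5%. PARP1 then had 13.6%, 11.3% and 14.2%, behind PARP14 and DTX3L in WT/-, and DTX3L stood above PARP14 in the HAQ/- control (11.9% against 10.1%) and cGAMP library (14.9% against 14.7%).

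**Figure D4:**
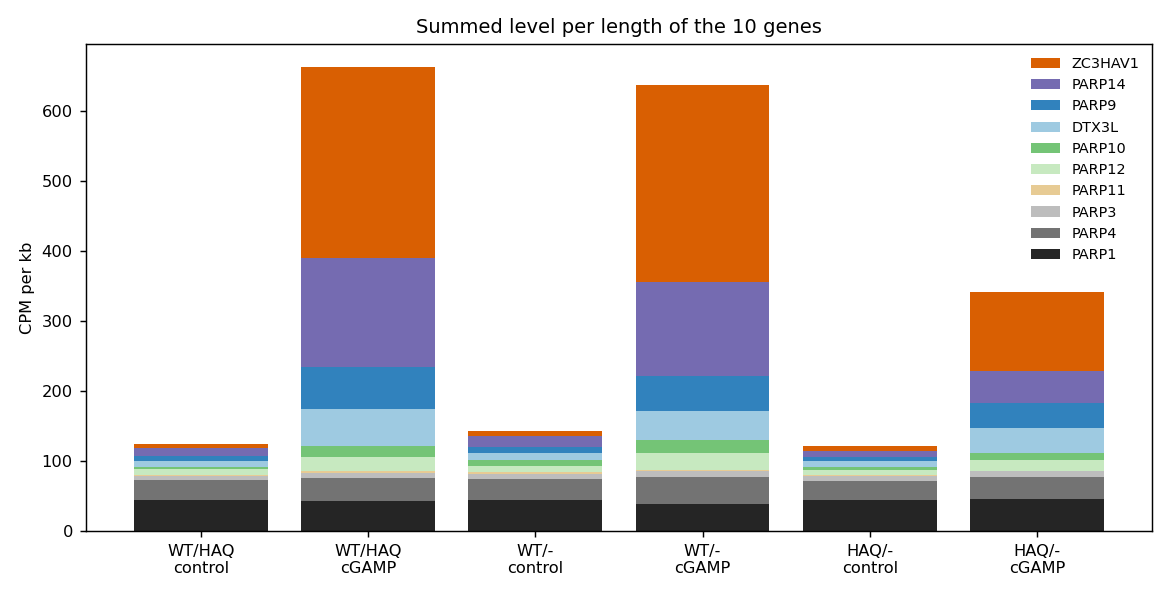
Summed level of the 10 genes in each library, in CPM per kb of canonical transcript, stacked by gene. Black and grey segments (PARP1, PARP4, PARP3) change little in height next to the others, while ZC3HAV1 and PARP14 make up most of the added height, which takes WT/HAQ from 124 to 662, WT/- from 143 to 636 and HAQ/- from 121 to 342.

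Among the 5 analysed genes next to PARP9, DTX3L and PARP14, none was raised 1.5-fold in any line. Of all genes 12.9%, 11.9% and 6.77% were raised in WT/HAQ, WT/- and HAQ/-, and edgeR called 2.27% higher and 0.959% lower. With so few genes, 0 is near these shares. Around PARP9, the protein-coding genes within 200 kb that are not among the 10 are CSTA, MIX23, FAM162A, WDR5B, KPNA1, PARP15 and HSPBAP1, and of the 5 analysed edgeR and DESeq2 called 0, also at an unadjusted p under 0.05. KPNA1, the nearest one analysed on the PARP9 side, had log2 folds of 0.45, 0.24 and 0.00, and HSPBAP1, beyond PARP14, had -1.11, -0.36 and 0.01. PARP15, between DTX3L and PARP14, is a further macrodomain PARP and was too low for the filter. It had 0 counts in all 3 controls and 37, 4 and 5 counts after cGAMP in WT/HAQ, WT/- and HAQ/-. Against a floor of 3 counts per library, PARP15 was at least 13.3-fold higher in WT/HAQ. In WT/- and HAQ/- the counting intervals of the PARP15 control and cGAMP levels overlapped, so that a difference was not detectable there at this depth.

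Around ZC3HAV1 and PARP12 some neighbours had higher levels after cGAMP in WT/HAQ and WT/- and smaller folds in HAQ/-, though edgeR called none of them. The difference between lines has no replicate, and 12.0% of all genes had a fold at least 1.5 times larger in WT/- than in HAQ/-. UBN2, whose product is a ubinuclein, had 425 and 2262 counts in WT/HAQ, 579 and 2491 in WT/-, and 572 and 648 in HAQ/-, with log2 folds of 2.52, 2.62 and 0.51 (edgeR adjusted p = 0.0843). TTC26 had log2 folds of 0.91, 1.11 and 0.42 (edgeR adjusted p = 0.0612). It starts 1.62 kb from the outer GENCODE end of ZC3HAV1, and farther from the ZC3HAV1 RefSeq start used above. ZC3HAV1L, a paralog of ZC3HAV1 without its PARP domain, had between 9 and 22 counts in all libraries, so that its folds rest on few reads, and KIAA1549 had log2 folds of 0.33, -0.01 and -0.06. Next to PARP12, the histone demethylase gene KDM7A had 845 and 2001, 808 and 1721, and 803 and 691 counts, with log2 folds of 1.35, 1.61 and 0.11 (adjusted p = 0.116), and TBXAS1 had 0.12, -0.36 and 0.04. PARP12 itself kept its fold in HAQ/- where KDM7A did not, a comparison without a replicate.

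**Figure D5:**
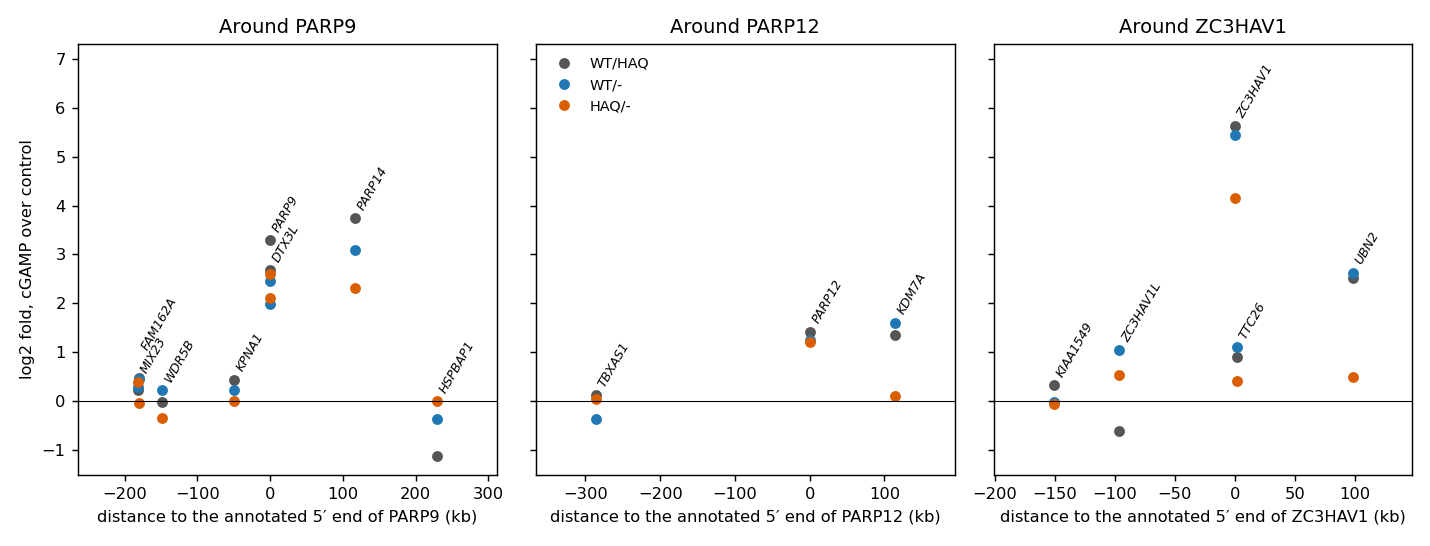
The log2 fold of cGAMP over control in each line for the analysed protein-coding genes with any part within 200 kb of PARP9, PARP12 and ZC3HAV1, against the distance in kb between annotated 5′ ends. PARP9, DTX3L and PARP14 stand above their neighbours in all 3 lines, while UBN2 and KDM7A are raised in WT/HAQ and WT/- and lie near 0.51 and 0.11 in HAQ/-.

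Of the rest of the PARP family, TIPARP was raised in WT/HAQ and WT/-, and no other analysed gene reached 1.5-fold. Among all genes 12.9%, 11.9% and 6.77% were raised in WT/HAQ, WT/- and HAQ/-, so 1, 1 and 0 of 7 genes are near these shares. For calls the shares of all genes were 2.27% higher and 0.959% lower. Of 8 further members, 7 were analysed (PARP2, TNKS, TNKS2, PARP6, TIPARP, PARP8 and PARP16) and 0 were called in either direction, with median log2 folds of -0.02, 0.01 and 0.05 in WT/HAQ, WT/- and HAQ/-. An unadjusted p under 0.05 in edgeR, and a call by DESeq2, were found for TIPARP alone. TIPARP, or PARP7, a mono-ADP-ribosyltransferase that restrains interferon signalling, had 2055 and 5362, 3724 and 5476, and 1239 and 1162 counts, with log2 folds of 1.49, 1.07 and 0.23 (average 0.94, edgeR adjusted p = 0.0964). The median over the 7 interferon-linked genes was 2.68, 1.99 and 2.11, and over all genes it was -0.01, 0.00 and -0.01.

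Among genes that remove ADP-ribose, make NAD+ or work with ZAP, edgeR called ADPRS, NAMPT and TRIM25 higher, 1 in each list, where it called 2.27% of all genes. In WT/HAQ and in WT/-, 1 of 8, 1 of 7 and 2 of 9 analysed genes of these lists were raised 1.5-fold, beside 12.9% and 11.9% of all genes. In HAQ/- it was 0 of 8, 0 of 7 and 1 of 9, beside 6.77%. Of 8 analysed erasers and readers of ADP-ribose, ADPRS, a hydrolase that takes ADP-ribose off serine, rose by an average log2 fold of 0.79 (edgeR adjusted p = 0.0303) and the other 7 were not called. Of 7 analysed genes of NAD+ synthesis, NAMPT, the rate-limiting enzyme of the salvage route, rose by 0.90 (adjusted p = 0.0448), with 3361 and 6935, 4704 and 6741, and 3116 and 3507 counts. Of 9 cofactors of ZAP, TRIM25, the ubiquitin ligase that ZAP needs, rose by 0.79 (adjusted p = 0.0158), and XRN1, the 5′-to-3′ exonuclease, had log2 folds of 1.72, 1.64 and 0.49 without passing the test (adjusted p = 0.0691). KHNYN, the nuclease that works with ZAP, had an average of -0.05 (adjusted p = 0.735). Of the 4 other Deltex ligases, edgeR called DTX2 lower, as it did 0.959% of all genes. DTX2 fell by 0.72 (adjusted p = 0.0345), with 482 and 253, 895 and 354, and 494 and 279 counts. DTX1, DTX3 and DTX4 were not called. In WT/HAQ, WT/- and HAQ/-, 1, 1 and 1 of the 4 were raised 1.5-fold, beside the shares above. Lowered were 1, 2 and 0, beside 12.3%, 8.79% and 5.79% of all genes.

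Interferon genes and factors that act downstream of interferon were called higher as well. All 5 of STAT2, IRF9, IRF7, IFNB1 and IFNL1 were called higher, with edgeR average log2 folds of 2.54 for STAT2 (adjusted p = 0.0189), 2.16 for IRF9 (adjusted p = 0.0297) and 2.50 for IRF7 (adjusted p = 0.00700). IFNB1, the gene of interferon beta, had 5 and 1325 counts in WT/HAQ, 2 and 1934 in WT/-, and 6 and 15 in HAQ/-. IFNL1, the gene of interferon lambda, had 4 and 1575, 4 and 1633, and 7 and 17 counts. In HAQ/- the log2 folds thus rest on few counts, with 1.65 (0.33 to 2.97) for IFNB1 and 1.61 (0.38 to 2.84) for IFNL1. Both interferon transcripts were far lower in the HAQ/- cGAMP library than in the other cGAMP libraries. The cGAMP levels of PARP9, DTX3L and PARP12 were lower there too, by the smaller ratios given above, and their folds were within counting error of those in WT/- (with the exception given for DTX3L), while the PARP9 and DTX3L folds were smaller than in WT/HAQ. IRF9, like the raised PARPs, started higher in the WT/- control, with 584 counts against 213 in WT/HAQ and 218 in HAQ/-, and its folds were 7.14, 2.60 and 5.01 in WT/HAQ, WT/- and HAQ/-. STAT2 stepped down as PARP14 did, with 9.46, 5.87 and 3.49.

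The genes nearest in pattern were found by the distance between log2 normalized counts over the 6 libraries, each gene centred on its own mean, among the 10780 genes that averaged 100 counts or more. For PARP9 they were TRIM22 (distance 0.283), IFIT5 and SP110, and for DTX3L they were IFI16 (0.434), IFIT5 and SLFN5. PARP9 and DTX3L, with start sites 38 bp apart by the PARP9 window shown, were at a distance of 0.670. There were 4 genes closer to PARP9 than DTX3L was and 12 closer to DTX3L than PARP9 was. For PARP14 the nearest were GBP5 (0.466), DDX60L and PMAIP1, for PARP12 N4BP1 (0.139), SP100 and TRIM5, for PARP10 PLCB4 (0.318), PSMB9 and CNP, and for ZC3HAV1 USP18 (0.756), BATF2 and IFI44. ZC3HAV1 had its nearest gene at the greatest distance of the 6, but the distances were not scaled for the size of the folds, which were largest for ZC3HAV1. The distances describe 6 libraries and are given without a test.

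The libraries held between 12444822 and 17608467 counts, with the WT/- and HAQ/- cGAMP libraries the smallest. STING1 had 757 and 1873 counts in WT/HAQ, 378 and 414 in WT/-, and 244 and 368 in HAQ/-, control before cGAMP, so that both edited lines lay below the parent and no library was without it. ERBB2, which SKOV3 cells carry in excess, had between 34787 and 79376 counts, and the epithelial genes PAX8, KRT7, KRT8 and KRT18 were present in all libraries. PAX8 had log2 folds of -1.78, -0.92 and -0.49 (edgeR adjusted p = 0.0821) and KRT7 had folds of 0.499, 0.631 and 0.777 (adjusted p = 0.0644), each lower after cGAMP beyond counting error, and DESeq2 called both lower. KRT18 (-0.52, -0.38 and -0.20) and ERBB2 (-0.07, -0.15 and -0.03) also lay below 0 beyond counting error on the log2 scale, without a call by either tool. Their part in the results was not tested. The leukocyte genes PTPRC, CD3E and CD14 had at most 4 counts in a library, PECAM1 of endothelium had 7 to 19, and COL1A1, used as a fibroblast marker, had 839 to 1123 without being called.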

How the data were processed

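Libraries were made from mRNA of 6 samples with an Illumina TruSeq kit. STAR and RSEM, with GRCh38 (hg38), are named in the submitters' processing notes; versions are not given in the sources used here. The authors deposited expected counts (estimated counts) per Ensembl gene without normalization. These were rounded to whole counts, and the 60 values of the 10 genes were whole as deposited. Reads shared by several genes are split by such estimates, which can affect overlapping or paralogous genes.

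Of 60498 genes, the 15126 that averaged 10 counts or more were analysed. Library sizes were scaled by TMM in edgeR 4.0.16 (R 4.3.3; factors 0.940 to 1.052). Each fold divides the cGAMP library by its own line's control, after raising counts below 3 to 3. Intervals are at 95% (Wilson for folds, normal for differences of folds, Poisson for levels) and cover counting error only. Treatment was tested with edgeR's quasi-likelihood F test, the line as a block (2 residual degrees of freedom) and Benjamini-Hochberg adjustment over all analysed genes, called at an adjusted p under 0.05. The p-values treat the lines as repeats, although each line is 1 culture or clone. DESeq2 1.42.0 served as an alternative. Steps were tested on simulated data. Other steps used scipy 1.17.1, pandas 2.3.3, numpy 2.4.6 and matplotlib 3.10.9 in Python 3.11.15.

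Library totals ranged from 12444822 to 17608467. Gene positions are from GRCh38 and GENCODE, promoters from RefSeq (GRCh38.p14). All 10 genes are named. From the other lists (PARP family, ADP-ribose erasers and readers, NAD+ synthesis, ZAP cofactors, Deltex ligases, interferon genes, markers) the called genes, those past 1.5-fold in all 3 lines, or otherwise up to 4 abundant ones, could be named. Neighbours were protein-coding genes within 200 kb. The 10 genes and the lists were chosen with earlier results of these data known. Genes named beyond these rules (TIPARP, XRN1, KHNYN and the other uncalled genes given by name) were chosen after their values were seen. A further gene of the interferon response is not reported here.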

Additional observations from a re-analysis of the deposited data

How the results depend on the processing

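The fold of each gene in each line stayed within its counting interval under DESeq2 size factors, total counts, thinning to the smallest library, a prior count of 2 and a filter at a mean count of 1. So did 60 differences between lines and 40 ratios of controls under the first pair of these scalings, though the DTX3L difference between WT/- and HAQ/- then excluded 0 with total counts (-0.17, -0.32 to -0.02). A floor of 10 cannot change a fold here, as no count of the 10 genes is that low. At 2-fold, 6 of the 10 genes were raised in each line, and at 1.2-fold 6, 8 and 7 in WT/HAQ, WT/- and HAQ/-, against 7.38, 6.58 and 3.12% of all genes at 2-fold and 24.2, 23.0 and 15.5% at 1.2-fold. The test across lines was less steady. Of the 10 genes, 3 were called higher without the line block (PARP9, DTX3L and ZC3HAV1), and leaving out 1 line gave 0 to 6, the 0 coming without WT/-, where 6 were higher at an unadjusted p under 0.05. Over all genes, against 344 higher and 145 lower, DESeq2 called 772 and 583, the fit without the line block 57 and 4, and a filter at a mean count of 1 gave 581 and 424. Leaving out 1 line gave 0 to 1313 higher and 0 to 1314 lower, the 0 again coming without WT/-, where an unadjusted p under 0.05 gave 953 and 945. The causes were not tested, though each fit with 2 lines has fewer samples. Shares per length depend on the transcript length, and 45 of 60 shares moved when all annotated exons were used, a choice made after seeing the data. No value past a threshold or its counting error changed sign, but 5 values within counting error of 0 did, the PARP12 difference between WT/- and HAQ/- (total counts) and control ratios of PARP1, PARP4, PARP9 and DTX3L. With 1 library per condition, differences between lines have no replicate error.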
